A study of Mus musculus with 8 samples.

Results

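Major histocompatibility complex (MHC) class I genes, class II genes and the invariant chain Cd74 were followed in mouse bone marrow LSK cells, sorted as Lineage- Sca-1+ c-Kit+ and containing the stem cells and multipotent progenitors of blood. The 10 genes were taken by symbol from the 23284 symbols of the deposited tables: H2-K1, H2-D1, B2m, Cd74, H2-Aa, H2-Ab1, H2-Eb1, H2-DMa, H2-DMb1 and Ciita. All 10 were found and all 10 passed the filter on low values, among 11931 genes tested. Male C57BL/6 mice aged 12 to 13 weeks, fasted for more than 14 hours, were injected intravenously for 7 days, and femur and tibia marrow was collected on day 8. Glucose mice received 2 g/kg glucose (2 libraries). Glucose plus lipid mice received the same glucose dose with 6 mL/kg of Intralipid 20%, a lipid emulsion (2 libraries). Control mice received phosphate-buffered saline, PBS (4 libraries). All mice could eat freely in the daytime, and the protocol does not state the fasting of the PBS mice separately. The series title sets the question as the effect of glucose and triglyceride after meals on marrow stem cells. Each library came from about 10000 sorted cells and is labelled a biological replicate, but the labels do not say whether it is 1 mouse or a pool. The p-values below set differences between groups against the spread between these libraries, an estimate that also draws on the other genes.

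MHC class I molecules are a membrane-spanning heavy chain (H2-K1 or H2-D1) bound to beta-2 microglobulin (B2m), and display peptides made inside the cell to CD8 T cells. They are carried by nearly all nucleated cells. MHC class II molecules are alpha and beta chain pairs that display peptides taken up from outside to CD4 T cells, mostly on dendritic cells, B cells and macrophages, and haematopoietic stem and progenitor cells can also carry them. Cd74, the invariant chain, fills the class II groove until proteases cut it down, H2-DM exchanges its last fragment for a peptide, and Ciita is the transactivator that switches class II, Cd74 and H2-DM genes on.

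On the GRCm38 (mm10) genome in the GENCODE vM21 annotation, 7 of the 10 genes lie in the H2 complex on chromosome 17, all protein coding. H2-K1 (chr17:33996017-34000347, minus strand) lies at one end and H2-D1 (chr17:35262730-35267499, plus strand) at the other. Between them stand H2-DMa (chr17:34119541-34139101, plus), H2-DMb1 (chr17:34153072-34160230, plus), H2-Ab1 (chr17:34257689-34269419, plus), H2-Aa (chr17:34282744-34287823, minus) and H2-Eb1 (chr17:34305867-34316674, plus). B2m is on chromosome 2 (chr2:122147686-122153083, plus) and Ciita on chromosome 16 (chr16:10480059-10528418, plus).

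The bases before the annotated starts of 6 genes are shown so that the families can be compared. Each stretch below is the 180 bases before a gene's first listed RefSeq start, 5′ to 3′ on the gene's strand, on GRCm38.p6. For H2-D1, H2-DMb1 and B2m the RefSeq start lies downstream of the GENCODE start. The H2-D1 stretch thus lies inside the GENCODE gene and the H2-DMb1 stretch runs into its gene. The B2m stretch ends on the first base of its GENCODE gene. Capitals mark 4 short motifs found on that strand: CNNGNAAC, the core of the class II X box, only where it stands 15 to 40 bases ahead of a Y core; ATTGG, the core of the Y box bound by nuclear factor Y; GGGATTCCC, a site of nuclear factor kappa B (NF-kB) in the class I enhancer A; and TTTCACTTC, an interferon response core. H2-Aa is at chr17:34287824-34288003 (minus), H2-Eb1 at chr17:34305687-34305866 (plus), H2-DMb1 at chr17:34153011-34153190 (plus), H2-K1 at chr17:34000348-34000527 (minus), H2-D1 at chr17:35262914-35263093 (plus) and B2m at chr2:122147507-122147686 (plus).
H2-Aa: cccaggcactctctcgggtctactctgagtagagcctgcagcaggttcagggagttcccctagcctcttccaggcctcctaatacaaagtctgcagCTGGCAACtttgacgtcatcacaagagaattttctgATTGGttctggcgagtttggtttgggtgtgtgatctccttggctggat
H2-Eb1: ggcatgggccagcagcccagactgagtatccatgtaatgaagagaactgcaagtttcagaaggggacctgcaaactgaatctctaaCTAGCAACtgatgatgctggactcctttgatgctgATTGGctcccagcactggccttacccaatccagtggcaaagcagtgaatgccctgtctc
H2-DMb1: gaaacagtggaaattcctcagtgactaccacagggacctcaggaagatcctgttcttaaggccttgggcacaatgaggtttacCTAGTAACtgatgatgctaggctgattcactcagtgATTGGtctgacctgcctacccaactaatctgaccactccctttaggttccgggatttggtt
H2-K1: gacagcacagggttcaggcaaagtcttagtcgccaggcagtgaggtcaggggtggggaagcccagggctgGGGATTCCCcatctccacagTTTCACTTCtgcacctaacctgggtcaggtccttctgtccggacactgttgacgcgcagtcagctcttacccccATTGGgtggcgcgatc
H2-D1: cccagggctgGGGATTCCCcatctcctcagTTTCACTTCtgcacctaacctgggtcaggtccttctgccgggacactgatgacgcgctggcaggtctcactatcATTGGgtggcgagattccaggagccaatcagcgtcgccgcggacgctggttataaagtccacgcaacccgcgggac
B2m: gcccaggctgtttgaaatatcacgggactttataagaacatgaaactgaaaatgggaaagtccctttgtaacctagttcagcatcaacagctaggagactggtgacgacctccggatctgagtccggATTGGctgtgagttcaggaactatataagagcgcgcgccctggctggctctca

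The H2-Aa, H2-Eb1 and H2-DMb1 stretches each hold the X core followed by the Y core, with 28 bases between them in H2-Aa and H2-DMb1 and 27 in H2-Eb1. The windows of H2-DMa, at both of its listed starts, hold no such pair and are not printed. Over 32817 windows of 300 bases around mouse starts, 1.08% hold such a pair on 1 strand with 15 to 40 bases between the cores. The single cores are common, at 39.1% of windows for the X core and 37.4% for the Y core on either strand. H2-K1 and H2-D1 share the NF-kB site, which 0.353% of windows hold, and the interferon response core, which 0.506% hold. The H2-K1 and H2-D1 windows were identical at 176 of 240 aligned bases (73.3%), and the B2m stretch has only the Y core in capitals. The motif letters and spacing were chosen after the sequences had been seen, the motifs do not overlap in these stretches, and a match describes letters and not binding. Promoter entries of 7 of the 10 genes were used. H2-Ab1 and Ciita had none in the table used, and that of Cd74 was not used here.

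Depth, estimated from the value of 1 fragment in low genes, was about 5870000 to 8610000 fragments a library. This gave about 18 to 120 fragments for Ciita and 77 to 650 for H2-Eb1 a library, so Ciita rests on the fewest fragments of the 10 genes. The 11 LSK gate markers were at 1 FPKM or more in all 8 libraries, with sums of 1610 to 2061 FPKM (fragments normalised to transcript length and to sequencing depth). One library stood apart: glucose plus lipid replicate 1 had a neutrophil marker sum of 64970 FPKM against 138 to 441 in the other 7, and a monocyte and macrophage sum of 684 FPKM against 47.0 to 85.7. Its B cell marker sum was 130 FPKM against 33.9 to 65.6, with 9 of 10 markers at 1 FPKM or more against 1 or 2 elsewhere. All 10 B cell markers were highest in that library. The defining B cell genes Cd79a and Ms4a1 stood there at 19.1 and 8.19 FPKM and at 0.38 FPKM or less in each other library, and Pax5 was listed at 0 in those 7. The dendritic cell sum, carried by Flt3, which LSK cells also express, was 208 FPKM in that library and 133 to 251 in the others, and 6 of the 10 dendritic cell markers were highest there, led by Siglech (10.2 FPKM) and Cd209a (5.33 FPKM). Flt3, Xcr1, Clec9a and Zbtb46 were highest in other libraries. The T and NK cell sum was 424 FPKM against 330 to 473. All 7 of these markers in the deposited data were at 1 FPKM or more in that library, against 2 or 3 elsewhere. Of the 7, 5 were highest there. B cells, macrophages and dendritic cells carry class II, so the differences of the 10 genes with glucose plus lipid are given with and without that library. Glucose plus lipid replicate 2 was also above PBS replicates 1 and 2 in the B cell sum, at 65.6 FPKM against 33.9 and 50.3. Its dendritic cell sum was 246 FPKM against 170 and 173, and its monocyte and macrophage sum 67.3 against 50.7 and 47.0. Its neutrophil sum, 164 FPKM, lay between their 138 and 201, and its T and NK cell sum was lower, 330 against 408 and 348. The part of these cells in the results was not tested. In bulk RNA, more cells of a type and more RNA per cell cannot be told apart.

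Class I genes were among the most abundant transcripts and nearly level across the libraries. By mean FPKM, B2m ranked 7, H2-K1 16 and H2-D1 18 among the 11931 genes tested. H2-K1, a classical heavy chain, was at 1636 and 1596 FPKM with glucose, 1411 and 1571 with glucose plus lipid, and 1355, 1398, 1418 and 1644 in PBS replicates 1 to 4. The highest of these 8 values was PBS replicate 4, and highest over lowest was 1.21. H2-D1, the other classical heavy chain of this strain studied here, was at 1462 and 1490 FPKM with glucose, 1693 and 1459 with glucose plus lipid, and 1392, 1389, 1397 and 1524 in PBS. Its highest library was glucose plus lipid replicate 1, and highest over lowest was 1.22. B2m, the light chain shared by all class I molecules, was at 4324 and 4287 FPKM with glucose, 4006 and 4252 with glucose plus lipid, and 3627, 3853, 3174 and 3980 in PBS. All 4 treated B2m values were above all 4 PBS values. H2-K1 and H2-D1 share sequence with other annotated genes, class I or not, in 8.79% and 14.3% of the 50-base windows of their longest coding transcripts, so a part of their reads could be assigned to other genes. None of the windows of B2m, Cd74, H2-Aa, H2-Ab1, H2-Eb1, H2-DMa and Ciita was shared. Mir5107, a microRNA gene that lies within Cd74, was left out of this count.

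**Figure D1:**
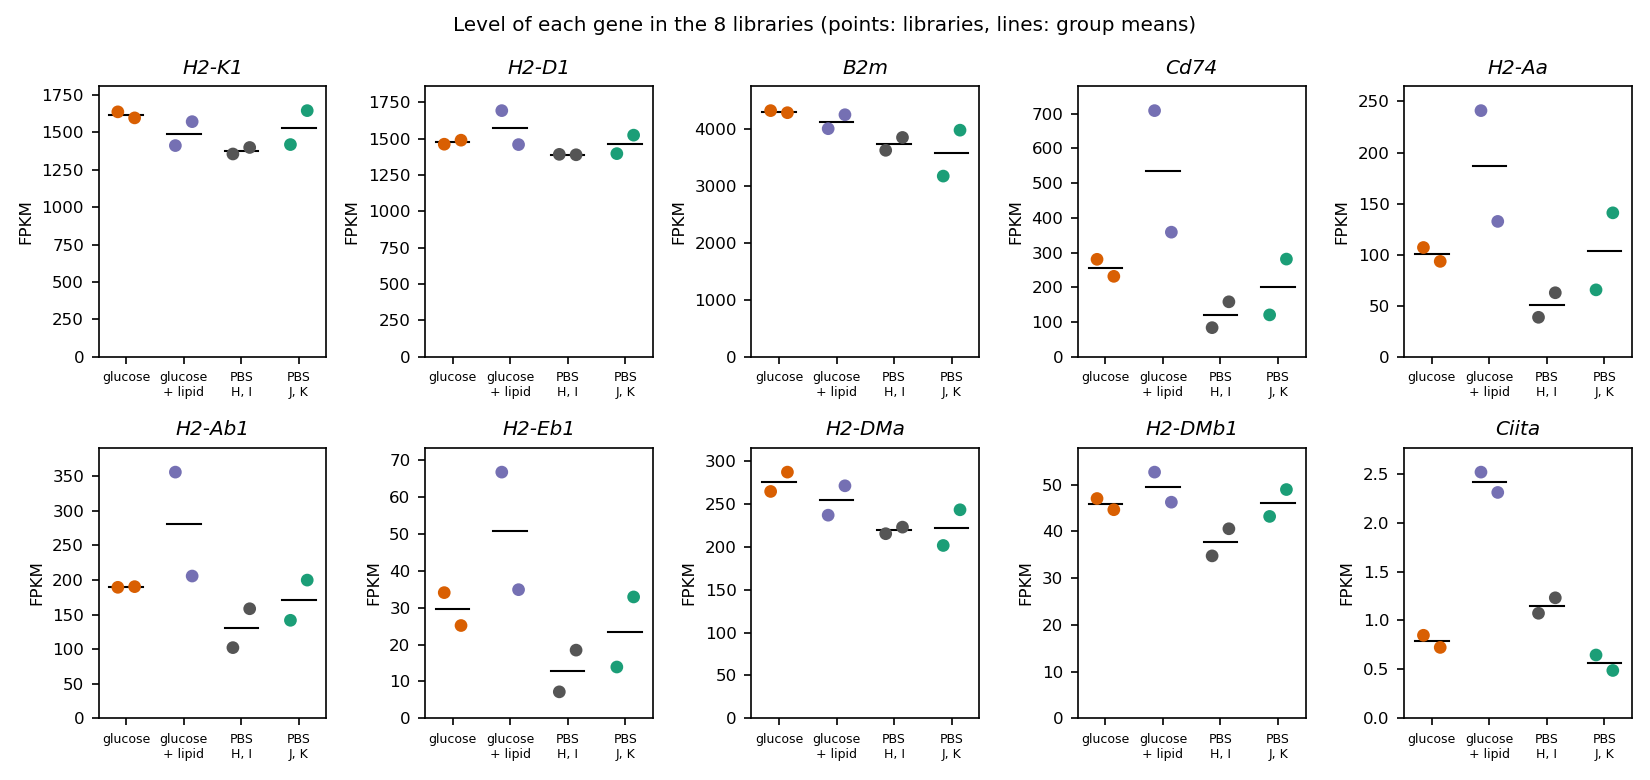
FPKM of the 10 genes in each of the 8 libraries, 1 panel a gene on a linear axis from 0, with a point for each library and a line at the mean of each group of 2. The class I panels are nearly flat, whereas Cd74, H2-Aa, H2-Ab1 and H2-Eb1 have their highest point in glucose plus lipid replicate 1 and their lowest in PBS replicate 1.

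Cd74 and the class II chains varied several-fold between libraries, and Cd74, H2-Aa and H2-Eb1 did so within PBS. Cd74 (chr18:60803848-60812652, plus strand) was at 281 and 232 FPKM with glucose, 709 and 359 with glucose plus lipid, and 83.9, 158, 121 and 281 in PBS replicates 1 to 4. Both glucose plus lipid values exceeded every PBS value, whereas PBS replicate 4 reached the level of the higher glucose library. H2-Aa, the alpha chain of I-A, was at 107 and 93.4 FPKM with glucose, 241 and 133 with glucose plus lipid, and 38.7, 62.7, 65.6 and 141 in PBS. PBS replicate 4 thus exceeded 3 of the 4 treated libraries. H2-Ab1, the beta chain of I-A, was at 189 and 190 FPKM with glucose, 356 and 206 with glucose plus lipid, and 102, 158, 142 and 200 in PBS. Its glucose values lay between those of PBS replicates 2 and 4. H2-Eb1, a beta chain whose I-E partner is not made in C57BL/6 mice, was at 34.1 and 25.2 FPKM with glucose, 66.7 and 34.9 with glucose plus lipid, and 7.18, 18.5, 13.9 and 32.9 in PBS. Highest over lowest was 8.44 for Cd74, 6.23 for H2-Aa, 3.48 for H2-Ab1 and 9.30 for H2-Eb1 over the 8 libraries. Within PBS alone it was 3.35 for Cd74, 3.64 for H2-Aa, 4.58 for H2-Eb1 and 1.96 for H2-Ab1.

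The H2-DM chains, which load peptides onto class II, differed in how they varied. H2-DMa was at 264 and 287 FPKM with glucose, 237 and 271 with glucose plus lipid, and 215, 223, 201 and 243 in PBS, with highest over lowest at 1.42. Only glucose plus lipid replicate 1 overlapped with PBS, below PBS replicate 4. H2-DMb1 was at 47.1 and 44.7 FPKM with glucose, 52.7 and 46.3 with glucose plus lipid, and 34.8, 40.6, 43.2 and 49.0 in PBS. It shares 27.2% of its 50-base windows with its neighbour H2-DMb2, so their reads may be mixed. Ciita was near the floor of detection, at 0.849 and 0.725 FPKM with glucose, 2.52 and 2.31 with glucose plus lipid, and 1.07, 1.23, 0.647 and 0.489 in PBS. Here the order of groups was unlike that of the class II genes. Glucose plus lipid was highest, PBS replicates 1 and 2 came next, and glucose and PBS replicates 3 and 4 were lowest. The 2 glucose plus lipid libraries had similar Ciita values although their class II levels were far apart.

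Mean levels gave the order glucose plus lipid, glucose, PBS replicates 3 and 4, then PBS replicates 1 and 2 for Cd74, H2-Ab1, H2-Eb1 and H2-D1. Cd74 means were 534 ± 247, 256 ± 34.6, 201 ± 114 and 121 ± 52.6 FPKM in that order (SD, n = 2 each). For Cd74, H2-Ab1 and H2-Eb1 both glucose plus lipid libraries were above both glucose libraries, while glucose and PBS replicates 3 and 4 overlapped, as did the PBS pairs. Among the neighbours in this order, H2-D1 overlapped except between the PBS pairs. For H2-Aa and H2-DMb1, PBS replicates 3 and 4 stood between glucose plus lipid and glucose, at 103 ± 53.3 against 100 ± 9.61 FPKM for H2-Aa with glucose (SD, n = 2). B2m, H2-K1 and H2-DMa had their highest mean with glucose, at 4306 ± 25.8, 1616 ± 28.5 and 276 ± 15.9 FPKM (SD, n = 2).

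The design gives each treatment its own PBS controls. PBS replicates 1 and 2 carry the letters H and I, as do the glucose plus lipid libraries, and were taken as their controls. PBS replicates 3 and 4 (J and K) were left for glucose, whose letters are A and B, so this assignment is an inference from names. Differences are on the scale of log2(FPKM + 1), which understates those of Ciita, with standard errors and p-values adjusted by Benjamini-Hochberg over all genes from 1 limma fit of all 8 libraries. A gene is called where the adjusted p is under 0.05. The comparisons between the 4 groups draw on that 1 spread estimate. The comparison of all 4 treated with all 4 PBS libraries has its own fit and spread estimate, as has each fit with a library left out.

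Against PBS replicates 1 and 2, glucose plus lipid had higher levels of Cd74 and class II, but none of the 10 genes passed the test. Limma called 0 of 10, against 0.0587% of all genes called higher (7 genes) and 0.0168% called lower (2 genes). At an unadjusted p under 0.05, 6 of 10 were higher (Cd74, H2-Aa, H2-Ab1, H2-Eb1, H2-DMb1 and Ciita) and 0 lower, against 5.87% of all genes higher and 5.93% lower. All 10 genes had both treated libraries above both controls, as did 22.2% of all genes. The median difference of the 10 was 0.53, against 0.01 for all genes tested. Cd74 differed by 2.12 ± 0.47 on the log2 scale (SE, 2 against 2 libraries; 95% interval 1.03 to 3.21), with adjusted p = 0.219 in limma. H2-Aa differed by 1.84 ± 0.41 (adjusted p = 0.217), H2-Eb1 by 1.97 ± 0.52 (adjusted p = 0.264) and H2-Ab1 by 1.08 ± 0.30 (adjusted p = 0.267). Ciita differed by 0.67 ± 0.23 (adjusted p = 0.343) and H2-DMb1 by 0.39 ± 0.13 (adjusted p = 0.331). The class I genes differed by 0.11 ± 0.11 (H2-K1), 0.18 ± 0.10 (H2-D1) and 0.14 ± 0.13 (B2m), and H2-DMa by 0.21 ± 0.12, each with an adjusted p of 0.539 or more. For H2-K1 the 95% interval was -0.14 to 0.36, and no test compared class I with class II genes.

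Each of the 2 treated libraries alone was above its controls, by different amounts. Without glucose plus lipid replicate 1, the library with neutrophil and B cell markers, Cd74 differed by 1.63 ± 0.50, H2-Aa by 1.41 ± 0.43, H2-Eb1 by 1.51 ± 0.59 and H2-Ab1 by 0.69 ± 0.28 in limma. The other members then differed by 0.19 ± 0.12 (H2-K1), 0.07 ± 0.11 (H2-D1), 0.19 ± 0.15 (B2m), 0.31 ± 0.14 (H2-DMa), 0.29 ± 0.16 (H2-DMb1) and 0.62 ± 0.29 (Ciita). These differences set 1 glucose plus lipid library against its 2 controls, so the spread within that treatment was not seen. Without glucose plus lipid replicate 2, when replicate 1 stood alone for the treatment, 3 genes were called: Cd74 rose by 2.61 (adjusted p = 0.0494), H2-Aa by 2.27 (adjusted p = 0.0464) and H2-Ab1 by 1.48 (adjusted p = 0.0430). In that fit 254 genes were called higher and 17 lower over all genes, and the lone library is assumed to vary like the other groups. Without PBS replicate 1, the lowest control, Cd74 differed by 1.66 ± 0.54, H2-Aa by 1.5 ± 0.48, H2-Eb1 by 1.34 ± 0.54 and H2-Ab1 by 0.77 ± 0.33 in limma. Without PBS replicate 2, they were 2.57 ± 0.54, 2.18 ± 0.48, 2.59 ± 0.54 and 1.40 ± 0.33 (adjusted p of 0.470 to 0.588). With PBS replicates 3 and 4 as controls instead, Cd74 differed by 1.45 ± 0.47 (adjusted p = 0.204), H2-Aa by 0.89 ± 0.41, H2-Eb1 by 1.13 ± 0.52, H2-Ab1 by 0.68 ± 0.30 and Ciita by 1.12 ± 0.23 (adjusted p = 0.120 in limma). Against those controls 2 of 10 genes were higher at an unadjusted p under 0.05 in limma, beside 947 of all 11931 genes. With its own controls, Ciita stayed between 0.61 and 0.72 whichever of the 8 libraries was left out.

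**Figure D2:**
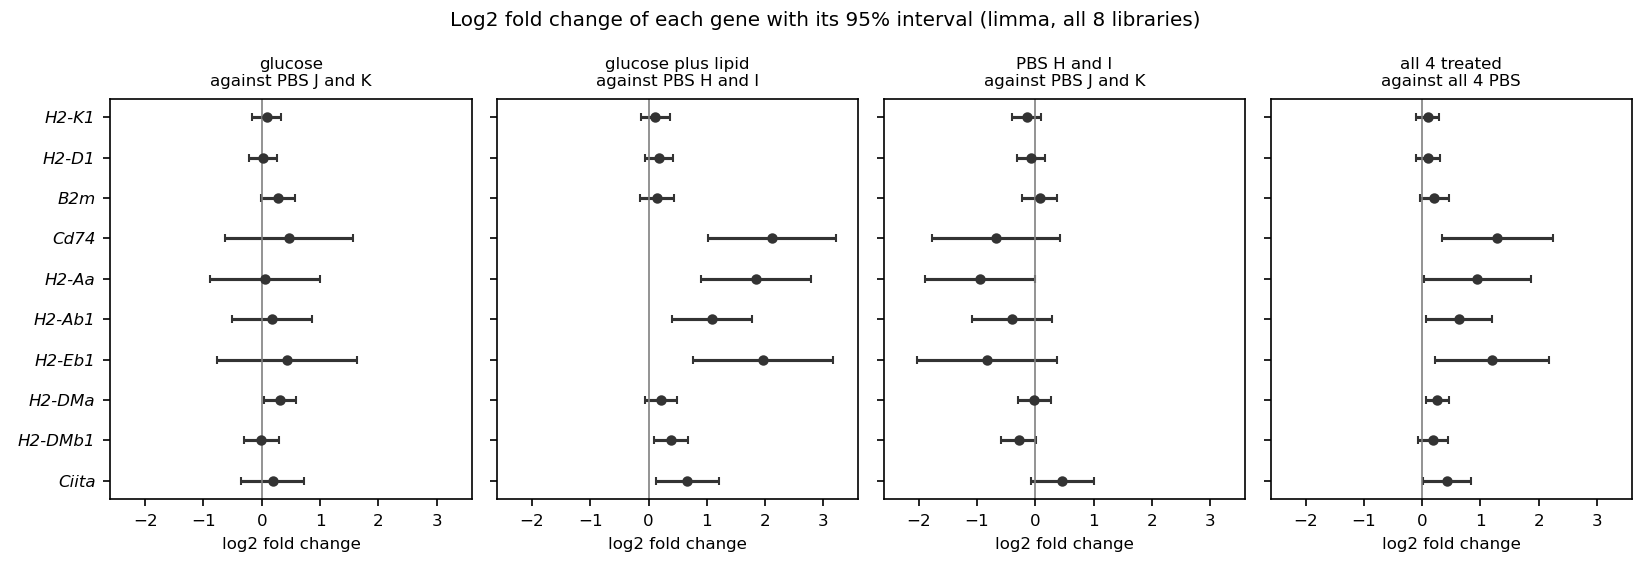
Log2 fold changes of FPKM + 1 for the 10 genes with 95% intervals from limma, in glucose, in glucose plus lipid, between the PBS pairs, and with all 4 treated against all 4 PBS libraries. Cd74, H2-Aa, H2-Ab1 and H2-Eb1 lie furthest from 0 with glucose plus lipid (1.08 to 2.12), and the class I genes lie within 0.28 of 0 in both treatments.

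**Figure D3:**
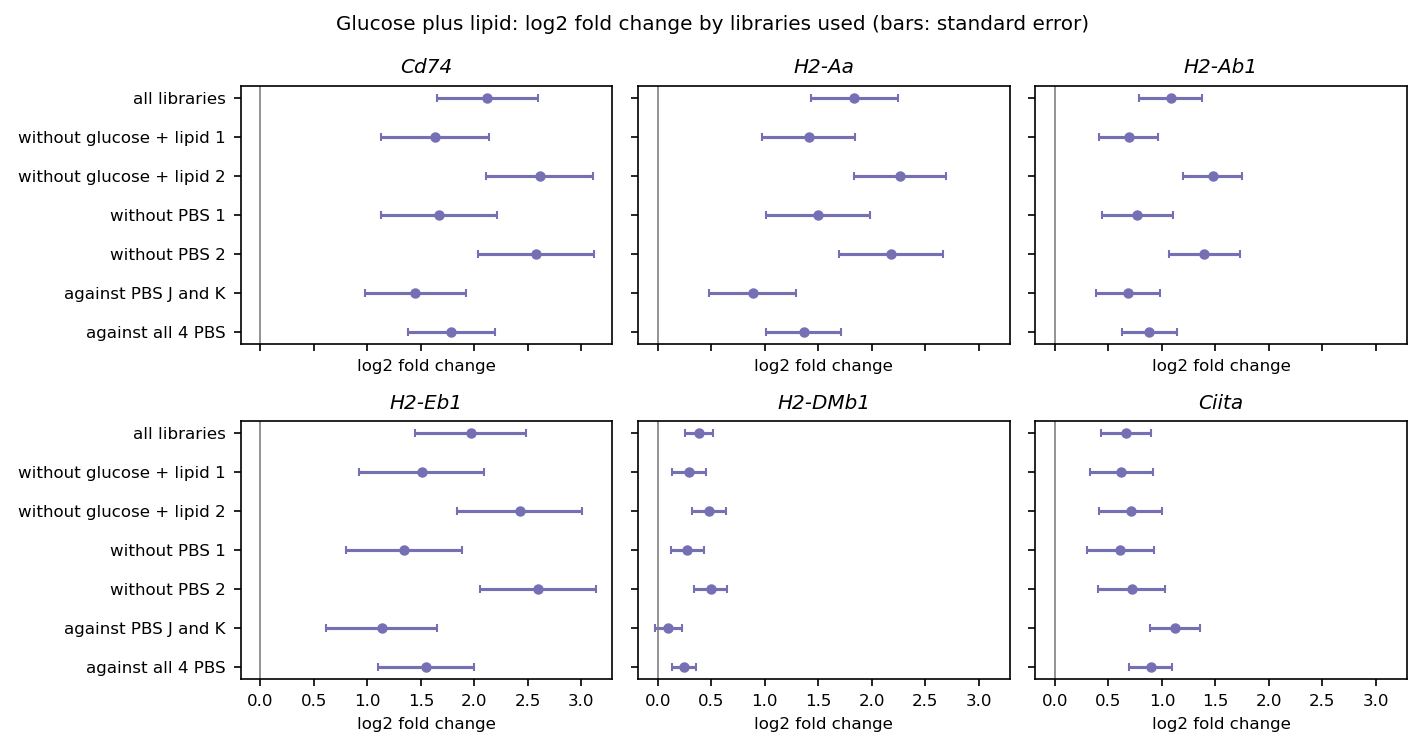
Log2 fold changes of Cd74, H2-Aa, H2-Ab1, H2-Eb1, H2-DMb1 and Ciita with glucose plus lipid, with standard errors, from all libraries, without each of the 4 libraries of the comparison in turn, and with other PBS libraries as controls. Cd74 ranges from 1.63 to 2.61 as libraries are left out, and is 1.45 against PBS J and K.

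Glucose alone against PBS replicates 3 and 4 gave small differences in these genes. Limma called 0 of 10, against 0.0922% of all genes called higher (11 genes) and 0.00838% called lower (1 gene). At an unadjusted p under 0.05 only H2-DMa was higher, 1 of 10 against 6.41% of all genes. B2m, H2-DMa and Ciita had both glucose libraries above both controls, 3 of 10 against 22.3% of all genes, and the median difference of the 10 was 0.18 against 0.00 for all genes. H2-DMa differed by 0.31 ± 0.12 (adjusted p = 0.295) and B2m by 0.28 ± 0.13 (adjusted p = 0.367). Cd74 differed by 0.47 ± 0.47, H2-Eb1 by 0.43 ± 0.52, H2-Ab1 by 0.17 ± 0.30 and H2-Aa by 0.06 ± 0.41 in limma, each within about 1 SE of 0. Ciita differed by 0.19 ± 0.23, H2-K1 by 0.08 ± 0.11, H2-D1 by 0.02 ± 0.10 and H2-DMb1 by -0.01 ± 0.13. The 2 controls were themselves unlike, with Cd74 at 121 and 281 FPKM. Without PBS replicate 3 the differences were -0.14 for Cd74, -0.49 for H2-Aa, -0.07 for H2-Ab1 and -0.16 for H2-Eb1. Without PBS replicate 4 they were 1.07, 0.60, 0.42 and 1.02, so the sign of the class II differences with glucose depended on which control was kept.

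The difference of the 2 treatment effects was 1.78 ± 0.57 for H2-Aa (unadjusted p = 0.0151, adjusted p = 0.331) and 1.65 ± 0.67 for Cd74 (unadjusted p = 0.0390, adjusted p = 0.391) in limma, larger with lipid. No member was called, against 0.0168% of all genes in either direction, and 2 of 10 had an unadjusted p under 0.05 and were higher, against 6.03%. H2-Eb1 gave 1.54 ± 0.73 and H2-Ab1 0.91 ± 0.42 (unadjusted p = 0.0711 and 0.0628 in limma). These values depended on the control pairs. With the controls crossed (glucose against H and I, glucose plus lipid against J and K), H2-Aa was at -0.12 and H2-Eb1 at -0.13.

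PBS replicates 1 and 2 against replicates 3 and 4, between which no treatment differed, gave differences of a size to set beside the treatment differences. H2-Aa was lower by 0.95 ± 0.41 on the log2 scale (unadjusted p = 0.0481, adjusted p = 0.285 in limma), and Cd74, H2-Eb1 and H2-Ab1 differed by -0.67 ± 0.47, -0.83 ± 0.52 and -0.40 ± 0.30. Ciita differed by 0.46 ± 0.23 in the other direction. None of the 10 was called, against 0.0503% of all genes in either direction, and 1 of 10 was lower at an unadjusted p under 0.05, against 9.72%. H2-K1, H2-D1, H2-Aa and H2-DMb1 had both H and I libraries below both J and K libraries, 4 of 10 against 25.3% of all genes, and Ciita had them above, 1 of 10 against 24.4%. These comparisons share their control libraries, so the values are set side by side only.

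With all 4 treated against all 4 PBS libraries and the control set as a block, limma again called 0 of 10, against 0.268% of all genes called higher (32 genes) and 0 lower. This fit uses the same libraries as the comparisons above. In all, 6 of 10 were higher at an unadjusted p under 0.05, against 6.18% of all genes. That count was 2 without glucose plus lipid replicate 1, beside 792 of all 11931 genes. It was 2 without PBS replicate 1 (540 of all genes), 3 without PBS replicate 2 (635) and 3 without PBS replicate 3 (559). It was 5 without either glucose library (681 and 573), 4 without glucose plus lipid replicate 2 (735) and 6 without PBS replicate 4 (783). Cd74 differed by 1.29 ± 0.42 and H2-DMa by 0.26 ± 0.09 (adjusted p = 0.347 each), and B2m by 0.21 ± 0.11 (adjusted p = 0.496). B2m was the 1 gene of 10 whose 4 treated libraries were all above the 4 PBS libraries, against 3.55% of all genes.

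Summed over H2-K1, H2-D1 and B2m, class I was at 7397 ± 34.7 FPKM with glucose, 7196 ± 121 with glucose plus lipid, 6507 ± 189 in PBS replicates 1 and 2, and 6569 ± 820 in PBS replicates 3 and 4 (SD, n = 2 each). Summed over Cd74, H2-Aa, H2-Ab1 and H2-Eb1, class II was at 611 and 541 FPKM with glucose, 1372 and 732 with glucose plus lipid, and 232, 398, 342 and 655 in PBS. Highest over lowest was 1.24 for the class I sum and 5.92 for the class II sum. The class II sum of PBS replicate 4 was above both glucose libraries.

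**Figure D4:**
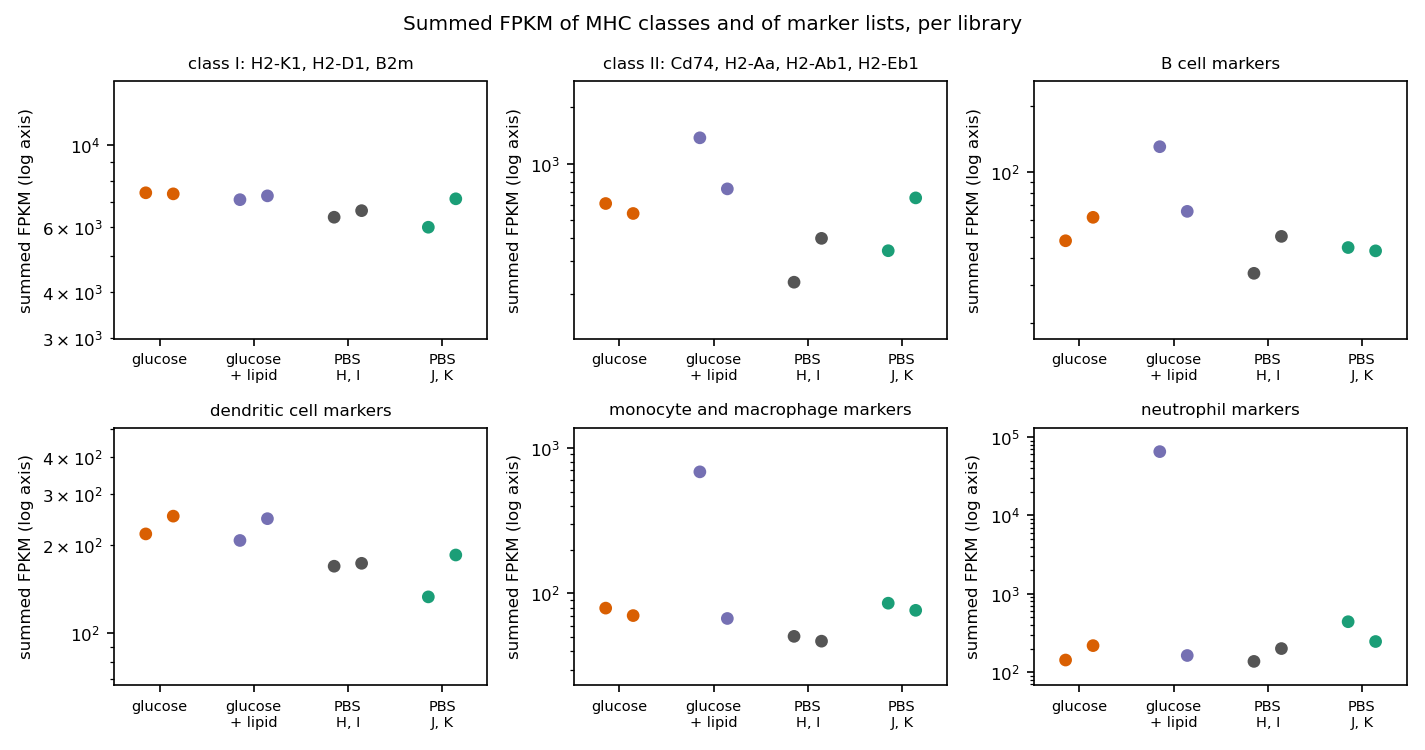
Summed FPKM per library, on log axes, of class I (H2-K1, H2-D1 and B2m), of class II with Cd74, and of the B cell, dendritic cell, monocyte and macrophage, and neutrophil markers, with a point for each library. The class II sums lie between 232 and 1372 FPKM, and glucose plus lipid replicate 1 is the highest point there and in 3 of the 4 marker panels.

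The 4 class II and Cd74 genes varied together across the libraries, although their ratios also differed between libraries. Over the 8 libraries the Pearson r of log2(FPKM + 1) between pairs of them was 0.9675 to 0.9849, and 0.9553 to 0.985 without glucose plus lipid replicate 1. The points share their libraries, depth and cell mixture, and no p is given. Cd74 was 1.84 to 2.94 times H2-Aa in FPKM, H2-Ab1 was 1.42 to 2.64 times H2-Aa, and H2-Aa was 3.14 to 5.39 times H2-Eb1. H2-DMb1 followed them with r from 0.9115 to 0.9612 over a much smaller range, and H2-D1 with r from 0.8389 to 0.9111. H2-DMa did so less, with r from 0.4449 to 0.5543. For Ciita, r was 0.4433 to 0.5624, and 0.0416 to 0.2221 without glucose plus lipid replicate 1. Within class I, r was 0.1933 to 0.6726, and B2m was 2.24 to 2.84 times H2-K1.

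Among 10012 genes with a mean of at least 3 FPKM, those most like the mean of Cd74, H2-Aa, H2-Ab1 and H2-Eb1 over the 8 libraries were Ptpn1 (r = 0.9853), Tmem134 (0.9663), Rnasek (0.9623), B4galt3 (0.9563), Ptar1 (0.9503) and Eepd1 (0.9463). Ptpn1 encodes a protein tyrosine phosphatase and stayed first without glucose plus lipid replicate 1 (r = 0.9791), but its range was small, at 29.3 and 28.1 FPKM with glucose, 35.1 and 30.8 with glucose plus lipid, and 24.2, 27.8, 26.3 and 29.4 in PBS. Those most like the mean of the class I genes were Usf2 (0.9718), Glul (0.9596), Mir1966 (0.9593), Fam89b (0.9543), Snn (0.9471) and Relb (0.942). Mir1966, a microRNA gene, was at 109 to 194 FPKM in the treated libraries. In PBS it was listed at 0 in replicates 1 to 3 and was at 357 FPKM in replicate 4, so its r reflects presence or absence. Relb, an NF-kB subunit, was at 10.4 to 11.1 FPKM in the treated libraries and 7.83, 7.35, 5.14 and 10.4 in PBS. With this many genes and 8 libraries, such r values are a description. Without glucose plus lipid replicate 1 the other 5 genes most like class II were at ranks 10 to 48, and Usf2 was at rank 4 for class I.

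Of 5 other class II genes 3 were tested and 0 called, with medians of 0.28 with glucose and 0.56 with glucose plus lipid, against 0.00 and 0.01 over all genes. H2-Ob and H2-Oa form H2-O, which restrains H2-DM. H2-Ob was at 32.9 and 48.8 FPKM with glucose, 31.5 and 37.1 with glucose plus lipid, and 25.3, 20.9, 23 and 24.7 in PBS, so its 4 treated libraries were all above PBS. So were those of 3.55% of all genes. H2-Ob differed by 0.73 ± 0.20 with glucose and 0.55 ± 0.20 with glucose plus lipid (adjusted p = 0.225 and 0.35 in limma). H2-Oa differed by 0.28 ± 0.18 and 0.56 ± 0.18. H2-DMb2, the close copy of H2-DMb1, was at 11 FPKM in glucose plus lipid replicate 1 and 1.56 to 4.41 elsewhere. H2-Ea-ps was listed at 0 in all 8 libraries.

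Of 13 class II regulators 11 were tested and 0 called, with medians of 0.10 and 0.16. Rfx5, Rfxank and Rfxap form the complex that binds the X box, and differed by 0.38 ± 0.25, 0.11 ± 0.20 and -0.08 ± 0.15 with glucose, and by 0.01 ± 0.25, 0.16 ± 0.20 and 0.16 ± 0.15 with glucose plus lipid. Nfyc, a subunit of the factor that binds the Y box, differed by -0.23 ± 0.16 and 0.26 ± 0.16, and Creb1, which can bind beside the X box, by 0.16 ± 0.15 and -0.46 ± 0.15 (adjusted p = 0.327 for the last in limma). Cd83, a surface protein that keeps class II at the cell surface, was at 2.95 and 1.41 FPKM with glucose, 9.97 and 2.14 with glucose plus lipid, and 0.732, 0.964, 0.311 and 0.617 in PBS. All 4 treated Cd83 values were above PBS, as for 3.55% of all genes. Cd83 differed by 1.08 ± 0.54 and 1.67 ± 0.54 (adjusted p = 0.405 and 0.325 in limma). Sfpi1, the myeloid and B cell factor PU.1, was at 155 FPKM in glucose plus lipid replicate 1 and 81.9 to 92.3 in the other 7.

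Of 10 genes that process antigen and the invariant chain, all were tested and 0 called, with medians of 0.07 with glucose and 0.38 with glucose plus lipid. Ctsh, a lysosomal protease, was at 55.6 and 29.7 FPKM with glucose plus lipid against 15.9 and 20.2 in its controls, a difference of 1.14 ± 0.29 (adjusted p = 0.256 in limma). Ifi30, the lysosomal thiol reductase, was at 21.2 FPKM in glucose plus lipid replicate 1 but 7.01 in replicate 2, against 7.14 and 7.05 in their controls. Ctsb followed that pattern, with 138 FPKM in glucose plus lipid replicate 1 and 68.1 to 77.4 in the other 7. Ctsz differed by -0.37 ± 0.15 with glucose and 0.38 ± 0.15 with glucose plus lipid, and by -0.52 ± 0.15 between the PBS pairs.

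Class I relatives and loading genes gave the same count of 0 called. Of 22 other class I genes listed, 21 were in the tables, 16 were tested and 0 were called, with medians of 0.17 and 0.39. H2-Q4 was at 9.5 and 11.4 FPKM with glucose, 9.36 and 11.1 with glucose plus lipid, and 6.26, 6.52, 4.75 and 7.25 in PBS, so all 4 treated libraries were above PBS. The same held for 3.55% of all genes. H2-Q4 differed by 0.73 ± 0.21 and 0.60 ± 0.21 (adjusted p = 0.229 and 0.349 in limma). Cd1d1, which presents lipids to NKT cells, differed by 0.25 ± 0.12 with glucose and 0.53 ± 0.12 with glucose plus lipid (adjusted p = 0.377 and 0.219). H2-T22, a nonclassical class I gene, differed by 0.73 ± 0.22 and 0.40 ± 0.22. The 14 peptide loading genes had medians of -0.13 and 0.21 with 0 called. Psmb10, an immunoproteasome subunit, was at 139 and 130 FPKM with glucose, 139 and 159 with glucose plus lipid, and 108, 113, 158 and 163 in PBS. Its PBS pairs were thus as far apart as any treatment difference, at -0.54 ± 0.10 between them against -0.26 ± 0.10 with glucose and 0.42 ± 0.10 with glucose plus lipid. Nlrc5, the class I transactivator, was at 9.86 and 11.7 FPKM with glucose, 13.6 and 14.3 with glucose plus lipid, and 9.91, 9.02, 9.32 and 10.2 in PBS, a difference of 0.13 ± 0.15 and 0.52 ± 0.15 (adjusted p = 0.731 and 0.290 in limma).

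None of the 14 interferon signalling genes was called. Their differences were above 0 for 14 of 14 with glucose and 11 of 14 with glucose plus lipid, against 49.9% and 51.7% of all genes. Between the PBS pairs, with J and K the lower, they were above 0 for 12 of 14, against 50.1% of all genes. The list had medians of 0.27 with glucose and 0.19 with glucose plus lipid. In each treatment comparison 4 of 14 had an unadjusted p under 0.05 and were higher, against 6.41% of all genes with glucose and 5.87% with glucose plus lipid. Irf1, a transcription factor induced by interferon, was at 184 and 169 FPKM with glucose, 266 and 271 with glucose plus lipid, and 150, 143, 87.1 and 143 in PBS. Every treated Irf1 value was above every PBS value, as for 3.55% of all genes. Irf1 differed by 0.66 ± 0.20 and 0.87 ± 0.20 (adjusted p = 0.237 and 0.229 in limma). Like Ciita, Irf1 had near equal values in the 2 glucose plus lipid libraries. Socs3, a feedback inhibitor of this signalling, differed by 0.92 ± 0.26 and 0.97 ± 0.26 (adjusted p = 0.228 and 0.264). Without glucose plus lipid replicate 1 the medians of these lists with glucose plus lipid were 0.66 for the other class II genes, 0.11 for the class II regulators and 0.04 for antigen processing, down from 0.38 with that library. They were 0.49 for the other class I genes, 0.26 for peptide loading and 0.15 for interferon signalling. The marker lists then had medians of 0.86 for dendritic cells, 0.78 for B cells, 0.35 for the LSK gate and 0.27 for monocytes and macrophages. Those of neutrophils and of T and NK cells were -0.01 and -0.20, and that of all genes was 0.01. Limma called 0 genes in each of these lists without that library too.

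**Figure D5:**
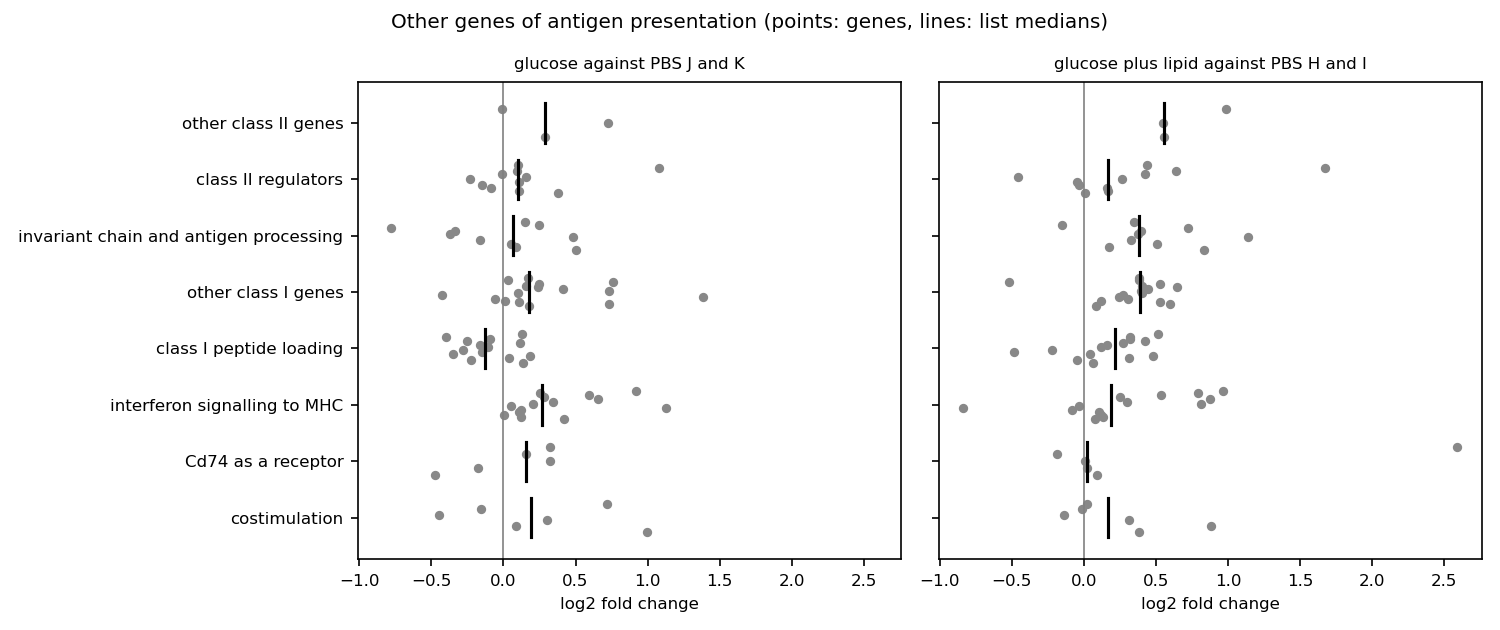
Log2 differences of log2(FPKM + 1) for every tested gene of 8 lists of related genes, in glucose (left) and glucose plus lipid (right) against their own PBS pair, with a point for each gene and a bar at the list's median. No gene of these lists was called in either comparison.

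Cd74 also serves as a receptor, and 0 of the 5 genes of that role were called, with medians of 0.16 and 0.02. Mif, its ligand, was at 551 and 449 FPKM with glucose, 426 and 461 with glucose plus lipid, and 438, 397, 771 and 618 in PBS, so the PBS pairs differed most (-0.72 ± 0.14, adjusted p = 0.110 in limma). Cd44, the co-receptor, differed by 0.32 ± 0.17 with glucose and 0.01 ± 0.17 with glucose plus lipid. Cxcr2, a neutrophil receptor that can pair with Cd74, was at 31.7 FPKM in glucose plus lipid replicate 1 and at 1.92 or less elsewhere. Of 8 costimulation genes 6 were tested and 0 called, with medians of 0.19 and 0.16. Cd86, the ligand of CD28, was at 12.7 and 9.98 FPKM with glucose, 13.9 and 16.9 with glucose plus lipid, and 11.6, 11.5, 5.04 and 5.25 in PBS. Its difference with glucose was 1 ± 0.17 (adjusted p = 0.119), and that between the PBS pairs was 1.03 ± 0.17 (adjusted p = 0.0985), both in limma.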

How the data were processed

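RNA of 8 libraries of sorted LSK cells was converted to cDNA with SMART-Seq HT and sequenced after Nextera XT, per the labels' protocols. The authors deposited 1 FPKM value per gene symbol and library. TopHat2 2.0.13, Bowtie2 2.2.3, SAMtools 1.0, Cuffnorm 2.2.1 and mm10 are named in the submitters' processing notes. The gene models and Cuffnorm's scaling were not stated in the sources used here, and the unit was read from the values. Strand is not stated, so reads of overlapping genes cannot be told apart.

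Genes reaching 1 FPKM in 2 or more libraries entered the test, made on log2(FPKM + 1) in limma 3.58.1 (R 4.3.3, trended variance), 2-sided. The procedure was tested on simulated data. Depth was estimated from the step of 1 fragment. Tables were made in Python 3.11.15 with pandas 2.3.3 and numpy 2.4.6, and figures in matplotlib 3.10.9.

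The 10 genes, the 8 related lists and the 6 marker lists were chosen with earlier results of these data known. All 10 genes were named, with at most 3 genes per list and treatment comparison by the smallest unadjusted p, regulators and markers beside them, and the 6 genes most alike by r. Spi1 and Sppl2a were matched by synonym (Sfpi1 and 2010106G01Rik), and H2-L and Trac were not analysed here. Some genes of the lists are counted but not reported by name here. Same-letter libraries of glucose plus lipid and PBS deviated together with r = 0.066 over 11931 genes, so the letters were not treated as pairs. Other pseudocounts, filters, scalings, controls and left-out libraries were tried.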

Additional observations from a re-analysis of the deposited data

Results flagged for a closer look

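H2-D1 over the 4 PBS libraries was flagged because 1 library lay far from the others: PBS replicate 4 was at 1524 FPKM against 1389 to 1397 in replicates 1 to 3. Its gap to the nearest of them was 0.9419 of the whole range, above the 95% critical value of Dixon's test for 4 samples. Chance flags about 1 in 20 groups. PBS replicate 4 was also the highest PBS library for the other 8 members apart from Ciita, which was lowest there.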

How the results depend on the processing

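Of 855 member values under the alternatives, 822 kept direction and side of the threshold. Members called stayed at 0 of 10 except in glucose plus lipid against PBS H and I, where leaving out 1 library gave 0 to 3; 3 without glucose plus lipid replicate 2. With the replicate block (letters H and I, which did not meet the pairing check), 0 members were called. Over all genes the calls ranged over the settings from 7 to 27 higher and 1 to 5 lower with glucose, 1 to 254 and 1 to 17 with glucose plus lipid, 1 to 123 and 0 to 18 for the difference of effects, 1 to 13 and 1 to 4 between PBS pairs, and 8 to 33 and 0 to 3 for all treated. Signs reversed as follows, and the cause was not tested; among them H2-Aa and H2-Eb1 in the difference of effects were 1.78 and 1.54 with the controls taken by name. After upper-quartile scaling H2-DMb1 with glucose was 0.0358, H2-K1 in the difference of effects -0.0344, and H2-DMa between PBS pairs 0.0211, and the class I sum with glucose was 7497 FPKM. With crossed controls H2-DMb1 and Ciita with glucose were 0.28 and -0.27, H2-K1 with glucose plus lipid -0.0365, and in the difference of effects H2-K1 was -0.27, B2m 0.0116, H2-Aa -0.12, H2-Eb1 -0.13 and H2-DMb1 -0.18. With all 4 PBS libraries as controls H2-DMb1 and Ciita with glucose were 0.14 and -0.0398, and H2-K1 in the difference -0.12. Leaving out 1 library, the values with glucose ran from -0.0252 to 0.19 (H2-K1), -0.0467 to 0.0788 (H2-D1), -0.14 to 1.07 (Cd74), -0.49 to 0.60 (H2-Aa), -0.0733 to 0.42 (H2-Ab1), -0.16 to 1.02 (H2-Eb1) and -0.0935 to 0.0829 (H2-DMb1). In the difference of effects they ran from -0.0756 to 0.14 (H2-K1), -0.30 to 0.0296 (B2m) and -0.24 to 0.0295 (H2-DMa), and between PBS pairs from -0.0906 to 0.24 (B2m) and -0.15 to 0.12 (H2-DMa). A fit of a comparison's own 4 libraries could not be made for the difference of effects or all treated, nor one with all 4 PBS for the PBS pairs or all treated. Ciita left the test at a mean of 3 FPKM. With 2 libraries a group, precision is low, and Ciita rests on few fragments.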

Other observations

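Mir5107 (GENCODE vM21, chr18:60812076-60812163, plus strand) lies within Cd74, so reads of the host transcript and of the microRNA gene cannot be told apart there. It was at 539 and 605 FPKM with glucose and 3431 and 945 with glucose plus lipid, and is listed at 0 in all 4 PBS libraries. FPKM is normalised to length, so in a gene as short as Mir5107 few fragments can give a high value. Its fragments were not counted. Its order among the treated libraries follows Cd74 only in part, since glucose replicate 2 was above replicate 1. PBS replicate 4 had Cd74 at the level of glucose replicate 1 and yet Mir5107 listed at 0.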
